A study of Homo sapiens with 5 samples.

Results

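Long noncoding RNAs linked to cell growth were followed in human RPE-1 cells after knock-down of FAM53C. The group held 10 genes taken by symbol. No threshold on a measured value chose them, but the list was drawn up with earlier results of these data known. They are GAS5, SNHG1, SNHG5, SNHG8, SNHG12, SNHG15, ZFAS1 and DANCR, which host small nucleolar RNAs (snoRNAs), and NEAT1 and MALAT1, which reside in nuclear bodies. Each of the 10 symbols matched 1 of the 64252 genes in the deposited count table, and all 10 were among the 15341 genes with enough counts to be tested. None of the 10 passed the test in either direction. Of the 8 hosts, GAS5 and SNHG12 were the nearest to a call. NEAT1 and MALAT1 differed more between libraries of the same condition than most genes.

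RPE-1 is an immortalized retinal pigment epithelial line. In 3 libraries (siCtrl) the cells received a non-targeting control siRNA and are labelled WT, and in 2 libraries (siFAM53C) they received a pool of siRNAs against FAM53C and are labelled FAM53C KD. Both were given at 5 µM by the labels, with polyA RNA collected 48 hr after transfection. The methods describe duplicates without naming the control libraries, and every comparison below uses all 5. Nothing in the labels says that the libraries came from separate cultures, so the spread between them may be technical.

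The libraries held 19260124 to 25615415 counts. FAM53C itself had 1434, 1141 and 1099 counts in siCtrl and 375 and 525 in siFAM53C, and was called lower (log2 fold change -1.71, SE 0.19, adjusted p = 0.003625 by the quasi-likelihood test of edgeR, Benjamini-Hochberg). Of the pigment epithelium markers, RPE65, DCT and TTR were at 0 in every library, RLBP1, TYR and TYRP1 had at most 2 counts, and MITF was at 40.05 ± 7.78 CPM (counts relative to the library total, scaled by TMM factors; SD, n = 3) in siCtrl. The remaining 6 were detected, OTX2 with 281 to 403 counts per library and RDH5, SERPINF1, LRAT, PMEL and BEST1 with 4 to 124. The keratin KRT8 was at 259 ± 24.6 CPM and the mesenchymal filament VIM at 3907 ± 342 CPM in siCtrl. The keratins KRT18 and KRT7 were at 168 ± 17.7 and 8.05 ± 2.39 CPM. The epithelial markers CDH1, EPCAM and KRT19 were nearly absent, with at most 3, 4 and 5 counts in any library. The blood markers CD3E and HBA1 were at 0 in every library, with 2 to 20 counts for PTPRC and 0 to 7 for CD14. Of the endothelial markers, CDH5 was at 0, PECAM1 had 4 to 20 counts and VWF 0 to 4. A principal component analysis of log2 CPM spread the libraries along its first axis (39.8% of variance), with siCtrl at -31.5, -47.4 and 33.7 and siFAM53C at 0.26 and 44.9. siCtrl replicate 3 and siFAM53C replicate 2 were taken as one side and the other libraries as the other, although siFAM53C replicate 1 lay midway and its side is not clear. This split cuts across the siRNA, and values within each of its sides are therefore given beside the results that it touches.

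A snoRNA host gene is transcribed as a long precursor whose introns are cut out and trimmed into snoRNAs, the guides that direct chemical modification of ribosomal RNA. The spliced exons that remain are exported, and several of them are destroyed by nonsense-mediated decay when ribosomes engage them. Many hosts start with a C followed by a run of pyrimidines, the 5′ terminal oligopyrimidine (5′ TOP) feature shared with ribosomal protein mRNAs, whose translation follows growth signalling through mTOR. GAS5 (growth arrest specific 5) was named for its accumulation in arrested cells. NEAT1 and MALAT1 lie next to each other on chromosome 11 and stay in the nucleus, NEAT1 as the scaffold of paraspeckles and MALAT1 in nuclear speckles.

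The 5′ ends are shown to show which hosts have, at an annotated start, the feature named above. RefSeq (GRCh38.p14) promoter entries were found for 8 of the 10 members, with no entry used for SNHG15 and NEAT1. Each RefSeq line gives 10 bases before the annotated start and 20 from it. The GAS5 line comes from GENCODE release 44 and gives the first 20 bases of its canonical transcript. Capitals mark the unbroken run of pyrimidines that begins with a C at the annotated first base.
SNHG12: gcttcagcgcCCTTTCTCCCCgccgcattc
SNHG5: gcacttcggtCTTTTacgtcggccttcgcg
ZFAS1: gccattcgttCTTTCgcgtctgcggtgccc
GAS5: CTTTTCgaggtaggagtcga
SNHG1: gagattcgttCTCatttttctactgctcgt
SNHG8: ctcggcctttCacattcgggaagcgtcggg
On GRCh38 the lines lie at chr1:28581854-28581883 (minus strand) for SNHG12, chr6:85678714-85678743 (minus) for SNHG5, chr20:49278632-49278661 (plus) for ZFAS1, chr1:173867970-173867989 (minus) for GAS5, chr11:62855866-62855895 (minus) for SNHG1 and chr4:118278752-118278781 (plus) for SNHG8.

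A C followed by at least 4 pyrimidines stood at the start of SNHG12, SNHG5 and ZFAS1 in RefSeq, where 4.07% of 35116 annotated starts have it. GAS5 had it in the GENCODE canonical transcript, where the share is 2.75% of 62700 transcripts, and did not have it at its RefSeq start. SNHG1 and SNHG8 began with a C whose run was shorter. DANCR, and the 2 MALAT1 entries, did not meet the rule in RefSeq. Annotated starts differ between the catalogues, since SNHG5 met the rule in RefSeq and not in GENCODE, and the starts used in RPE-1 cells were not measured here.

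The hosts also differ in how many snoRNAs they carry. RefSeq places 11 snoRNA genes within GAS5, of which 10 are of the C/D class and 1 of the H/ACA class. SNHG1 holds 9, SNHG12 holds 4, ZFAS1 holds 3 and SNHG5 holds 2, while SNHG8, SNHG15 and DANCR hold 1 each. NEAT1 and MALAT1 hold 0. In that catalogue GAS5 spans 5145 bp, DANCR 8304 bp and NEAT1 22743 bp.

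Levels were compared between members only per length, as CPM per kilobase of all annotated exon bases in siCtrl. GAS5 stood highest at 31.1 ± 1.20, followed by SNHG1 at 25.7 ± 3.89, MALAT1 at 22.5 ± 19.4 and NEAT1 at 12.8 ± 9.25 (SD, n = 3). This order is that of the means. GAS5 exceeded SNHG1, and MALAT1 exceeded NEAT1, in each of the 3 siCtrl libraries. In siCtrl replicate 3, however, MALAT1 was the highest member, above both GAS5 and SNHG1 (44.9 for MALAT1 against 31.5 for GAS5). A second tier ran from SNHG15 (5.95 ± 0.66) through DANCR (5.48 ± 0.52), SNHG8 (5.32 ± 1.10) and ZFAS1 (5.16 ± 0.27) to SNHG12 (4.76 ± 0.73), again with overlapping ranges. SNHG5 was lowest at 2.37 ± 0.13, below every siCtrl value of SNHG12. This order depends on the length used, because these genes have many annotated isoforms. Per kilobase of the canonical transcript alone, GAS5 was at 199 ± 7.69, SNHG1 at 87.9 ± 13.3 and SNHG5 at 22.7 ± 1.21. By these means SNHG5 moved from the lowest place to the third, a place not resolved from MALAT1 at 22.5 ± 19.4.

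**Figure D1:**
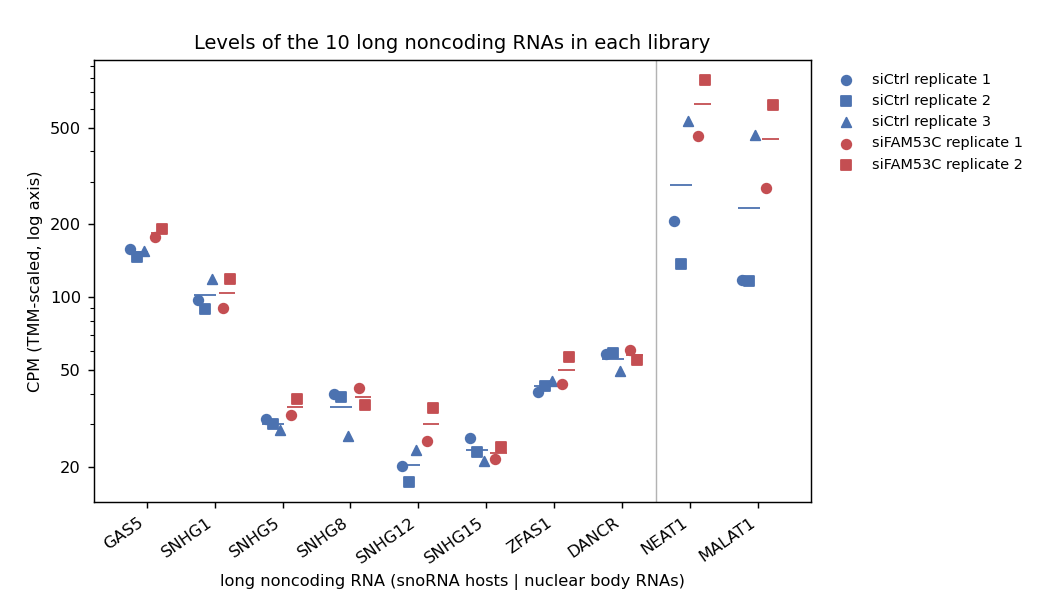
CPM of each of the 10 long noncoding RNAs (log axis) in the 3 siCtrl libraries (blue) and the 2 siFAM53C libraries (red), with a horizontal line at the mean of each condition. On this axis the hosts span narrower ranges than NEAT1 and MALAT1, the widest being SNHG12 (17.3 to 34.8 CPM). siCtrl replicate 3 (triangles) lies far above the other siCtrl libraries for NEAT1 (531 CPM) and MALAT1 (469 CPM).

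In edgeR (quasi-likelihood, Benjamini-Hochberg over all 15341 genes), 0 of the 10 members were called lower in siFAM53C (background 3.47% of genes) and 0 were called higher (background 0.489%, or 3.96% in either direction). DESeq2 (background 6.98% lower and 2.02% higher) and limma-voom (3.35% lower and 0.482% higher) also called 0 in each direction. At an unadjusted p under 0.05, edgeR gave 2 higher, GAS5 and SNHG12, and 0 lower, where the background was 6.61% of genes higher and 10.5% lower. Of the 10 members, 9 had a log2 fold change above 0 and the median was 0.24. Over all 15341 genes tested, 7950 lay above 0 and the median was 0.016. When scaled by library totals alone, 10 of 10 members and 9253 of all genes lay above 0. The median of all genes then moved to 0.087. The values of siFAM53C lay wholly above those of siCtrl for 3 members, GAS5, SNHG5 and SNHG12 (background 16.7% of genes higher), and wholly below for 0 (background 18.8%). In bulk RNA, fewer cells with a transcript and less of it per cell cannot be told apart.

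GAS5 (ENSG00000234741, chromosome 1, 173858559 to 173868882, minus strand) was at 158, 147 and 155 CPM in siCtrl and at 178 and 192 CPM in siFAM53C. Both siFAM53C libraries lay above all siCtrl libraries, and the siCtrl libraries were close to each other. Means were 153 ± 5.91 (SD, n = 3) and 185 ± 9.99 (SD, n = 2), a log2 fold change of 0.27 (95% interval 0.037 to 0.50, SE 0.10, adjusted p = 0.2277, edgeR's quasi-likelihood test). The difference was 0.23 within the side of siFAM53C replicate 1 and 0.30 within the side of siFAM53C replicate 2. When the split, itself read from these data, was added to the model, the log2 fold change was 0.26 and GAS5 was called higher (adjusted p = 0.03366, edgeR; in that fit the background was 6.76% of genes higher and 10.7% lower).

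SNHG12 (ENSG00000197989, chromosome 1, 28578538 to 28583132, minus strand), which hosts mostly H/ACA snoRNAs, was at 20.1, 17.3 and 23.5 CPM in siCtrl and at 25.4 and 34.8 CPM in siFAM53C. The conditions did not overlap, although siFAM53C replicate 1 was only just above siCtrl replicate 3. Its log2 fold change of 0.57 was the largest of the hosts (SE 0.19, 95% interval 0.13 to 1.02, adjusted p = 0.1833, edgeR's quasi-likelihood test). Among the alternatives without a replicate block, it was called higher with the term for the split (0.50, adjusted p = 0.01424, edgeR), without siCtrl replicate 3 (0.69, adjusted p = 0.04369) and with no filter on low counts (0.57, adjusted p = 0.02691). Leaving out siFAM53C replicate 2 lowered the value to 0.32. SNHG12 and GAS5 were the members called with the term for the split, 2 of 10.

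SNHG5 (ENSG00000203875, chromosome 6, 85650491 to 85678932, minus strand) hosts a pair of C/D snoRNAs of the SNORD50 family. It was at 31.5, 29.9 and 28.3 CPM in siCtrl and at 32.6 and 38.1 CPM in siFAM53C. The conditions did not overlap, but by a narrow margin, and the log2 fold change of 0.24 (SE 0.13, 95% interval -0.062 to 0.54) had an adjusted p of 0.4095 (edgeR). Within the sides the difference was 0.086 and 0.43, and without siFAM53C replicate 2 the log2 fold change was 0.12.

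ZFAS1 (ENSG00000177410, chromosome 20, 49278178 to 49299600, plus strand) hosts the SNORD12 family. It was at 40.6, 43.0 and 45.2 CPM in siCtrl and at 43.99 and 56.7 CPM in siFAM53C. The conditions overlapped, since siFAM53C replicate 1 lay below siCtrl replicate 3, and the log2 fold change of 0.23 (SE 0.14) had an adjusted p of 0.4618 (edgeR). Within the sides the difference was 0.074 and 0.33. The log2 fold change was 0.034 without siFAM53C replicate 2 and 0.40 without siFAM53C replicate 1.

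The other 4 hosts had differences within their standard errors. SNHG8 (chromosome 4, 118278703 to 118285316, plus strand, host of SNORA24) was at 39.99, 38.8 and 26.8 CPM in siCtrl and 42.1 and 35.8 CPM in siFAM53C, a log2 fold change of 0.14 with a 95% interval of -0.29 to 0.58. Its low value in siCtrl replicate 3 was 0.682 times the mean of the other siCtrl libraries, and without that library the log2 fold change was -0.0086. DANCR (chromosome 4, 52712325 to 52723623, plus strand), an RNA named for its part in holding cells undifferentiated, was at 58.6, 59.0 and 49.7 CPM in siCtrl and 60.8 and 55.1 CPM in siFAM53C (log2 fold change 0.056, interval -0.23 to 0.34). SNHG15 (chromosome 7, 44983019 to 44986961, minus strand), a short-lived host RNA, was at 26.2, 23.1 and 21.1 CPM in siCtrl and 21.6 and 24.02 CPM in siFAM53C (-0.041, interval -0.39 to 0.31). The conditions overlapped for each of these, and adjusted p-values ran from 0.7768 to 0.932 (edgeR).

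SNHG1 (ENSG00000255717, chromosome 11, 62851978 to 62855953, minus strand), with 9 snoRNA genes the most loaded host after GAS5, was at 97.4, 89.6 and 119 CPM in siCtrl and at 90.0 and 119 CPM in siFAM53C. Here the libraries separated by side and not by siRNA, as both high values belong to siCtrl replicate 3 and siFAM53C replicate 2. The log2 fold change was 0.031 (95% interval -0.36 to 0.42, SE 0.17, adjusted p = 0.9551, edgeR), and within the sides the differences were -0.054 and -0.0090. The upper ends of the 95% intervals are 1.33-fold for SNHG1 and 1.27-fold for DANCR, so equality of the conditions was not shown.

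**Figure D2:**
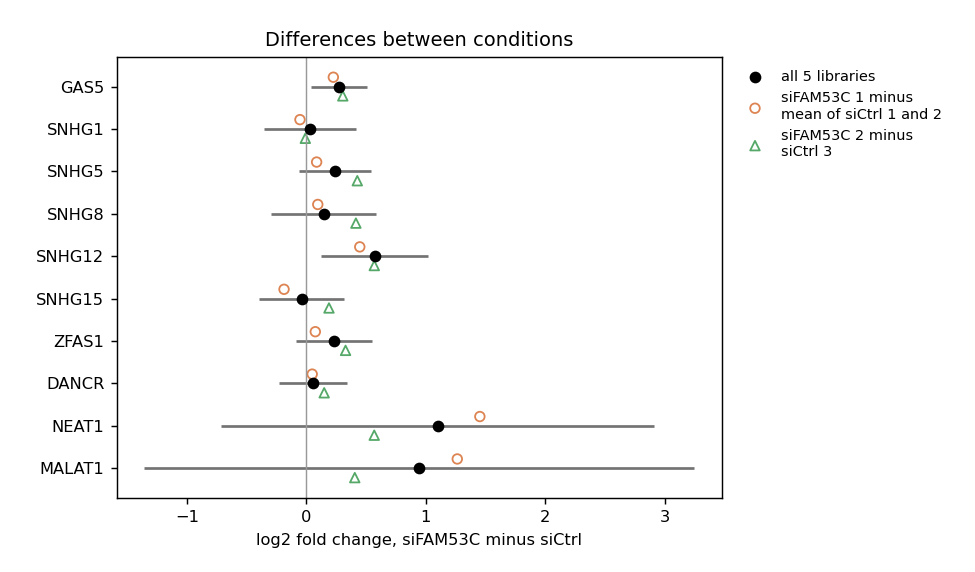
Log2 fold change of siFAM53C against siCtrl for each member from edgeR (black points; bars are 95% intervals), with the difference within the side of siFAM53C replicate 1 (open circles) and within the side of siFAM53C replicate 2 (open triangles). The bars of GAS5 and SNHG12 lie above 0 before adjustment, and those of NEAT1 and MALAT1 reach from below 0 to 2.91 and 3.24.

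Summed over the 8 hosts, CPM was 472, 447 and 469 in siCtrl and 494 and 555 in siFAM53C. The sums did not overlap, and GAS5 made up the largest share of each. Among the hosts, the 4 with a C and at least 4 pyrimidines at an annotated start in either catalogue (SNHG12, GAS5, SNHG5 and ZFAS1) had log2 fold changes of 0.23 to 0.57, and the other 4 had values of -0.041 to 0.14. This grouping was made after the values were seen and pools the catalogues. The start of SNHG15 was not read in either catalogue, so its place among the other 4 is not known. The grouping did not hold without siFAM53C replicate 2, where ZFAS1 had 0.034 and SNHG5 0.12, beside 0.25 for SNHG8 and 0.12 for DANCR.

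NEAT1 (ENSG00000245532, chromosome 11, 65422774 to 65445540, plus strand) was at 207, 137 and 531 CPM in siCtrl and at 461 and 788 CPM in siFAM53C. siCtrl replicate 3 lay above siFAM53C replicate 1, so the conditions overlapped. The log2 fold change was 1.10 (95% interval -0.71 to 2.91, SE 0.67, adjusted p = 0.5127, edgeR's quasi-likelihood test), the largest of the members and with the widest error but for MALAT1. Within the sides, the differences were 1.45 and 0.57. A short and a long NEAT1 isoform share their 5′ part, and gene counts do not separate them.

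MALAT1 (ENSG00000251562, chromosome 11, 65497640 to 65508073, plus strand) was at 118, 117 and 469 CPM in siCtrl and at 282 and 620 CPM in siFAM53C. The conditions overlapped in the same way. Its log2 fold change was 0.94 (SE 0.84, 95% interval -1.36 to 3.24, adjusted p = 0.6705, edgeR), with 1.26 and 0.40 within the sides. With the term for the split, MALAT1 had 0.90 (adjusted p = 0.1287, edgeR) and NEAT1 1.06 (adjusted p = 0.2549), and neither was called in any fit without a replicate block. Without siCtrl replicate 3 the log2 fold changes were 1.87 for NEAT1 and 1.95 for MALAT1, and without siFAM53C replicate 2 they were 0.66 and 0.27, so that 1 library of each condition moved the value by more than 1.5 times. For MALAT1, leaving out siCtrl replicate 1 or siCtrl replicate 2 gave 0.62. Mature MALAT1 and the long NEAT1 isoform end without a poly(A) tail, and how fully they were recovered in these polyA libraries was not measured.

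The spread of these RNAs inside a condition was large. In siCtrl replicate 3, MALAT1 was 3.99 times and NEAT1 3.16 times the mean of siCtrl replicates 1 and 2 (geometric), which placed them at the 98.4 and 97.2 percentile of all tested genes for that difference. In siFAM53C replicate 2, they were 2.20 and 1.71 times their values in siFAM53C replicate 1. Among the hosts the same siCtrl ratio ran from 0.682 (SNHG8) to 1.28 (SNHG1). The ratio of NEAT1 to MALAT1 counts was 1.76, 1.17 and 1.13 in siCtrl and 1.63 and 1.27 in siFAM53C.

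The order of the libraries along the first principal component, from siCtrl replicate 2 through siCtrl replicate 1, siFAM53C replicate 1 and siCtrl replicate 3 to siFAM53C replicate 2, was also the order of both NEAT1 and MALAT1 from low to high. The component was computed with these genes included among 15341. The share of counts on all other long noncoding RNA genes followed the same order, at 0.554%, 0.540% and 0.660% in siCtrl and 0.635% and 0.703% in siFAM53C. The mitochondrial share was 3.56%, 3.89% and 4.51% in siCtrl and 3.62% and 4.79% in siFAM53C, with the highest values in the same 2 libraries that were highest in MALAT1 and NEAT1. The part of either share in these levels was not tested.

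**Figure D3:**
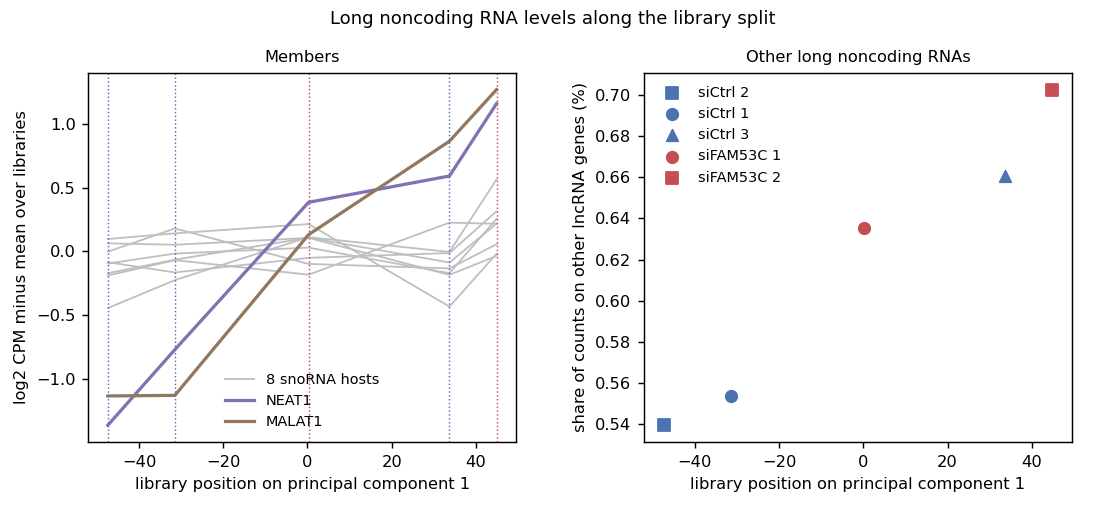
Left, log2 CPM of each member minus its mean over the 5 libraries, plotted against the position of the library on the first principal component (dotted lines, blue for siCtrl and red for siFAM53C). Right, the percent of counts on long noncoding RNA genes other than the members, against the same position. NEAT1 and MALAT1 climb along the component through libraries of both conditions, as does the share at right (0.540% to 0.703%), and the grey host lines span a narrower range, the widest being SNHG12 (-0.45 to 0.56) and SNHG8 (-0.43 to 0.21).

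Of 1623 other long noncoding RNAs tested, 1 was called higher and 1 lower (0.0616% each way, background 0.489% higher and 3.47% lower). Their median log2 fold change was 0.20, with 1050 above 0, beside 0.19 for the 8 hosts. Within the side of siFAM53C replicate 1 the medians were 0.22 for the other long noncoding RNAs and 0.080 for the hosts, and within the side of siFAM53C replicate 2 they were 0.078 and 0.32. The values of siFAM53C lay wholly above siCtrl for 17.1% of them and wholly below for 7.15%. The gene called lower was OIP5-AS1, the human counterpart of the vertebrate RNA cyrano, at 161 ± 17.3 CPM in siCtrl and 71.0 ± 12.1 CPM in siFAM53C (log2 fold change -1.18, SE 0.15, adjusted p = 0.005642, edgeR). It lost its call without siFAM53C replicate 1 (adjusted p = 0.05446). The gene called higher was MIR100HG, host of microRNAs of the miR-100, let-7 and miR-125 families, at 62.6 ± 6.90 and 92.0 ± 1.31 CPM (0.56, SE 0.12, adjusted p = 0.04793, edgeR). Its call was kept without siCtrl replicate 3 (adjusted p = 0.004337) and lost when any other library was left out (adjusted p 0.1897 to 0.2676), with log2 fold changes of 0.50 to 0.66 over all 5 of these fits.

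Of 20 further snoRNA host RNAs, 17 were tested and 0 were called in either direction by edgeR, and the unadjusted p was under 0.05 for 1 higher and 1 lower. Their median was 0.16 and 12 lay above 0. SNHG14, the long host of the imprinted SNORD115 and SNORD116 clusters, was at 42.4, 56.1 and 45.6 CPM in siCtrl and at 31.7 and 28.5 CPM in siFAM53C. It lay lower in both siFAM53C libraries and just outside the threshold (log2 fold change -0.67, SE 0.15, adjusted p = 0.05408, edgeR). With the term for the split, SNHG14 was called lower (-0.65, adjusted p = 0.001467, edgeR). That fit called 1 of the 17 lower and 1 higher, beside a background of 10.7% and 6.76% of genes. SNHG3 was at 94.2 ± 30.6 and 111 ± 34.9 CPM.

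MEG3, an imprinted long noncoding RNA on another chromosome, was at 93.5, 76.1 and 337 CPM in siCtrl and at 141 and 394 CPM in siFAM53C. It stood in the same library order as NEAT1 and MALAT1, and its siCtrl replicate 3 value, 2.00 above the mean of the other siCtrl libraries on the log2 scale, was at the 98.4 percentile of all genes. Its log2 fold change of 0.66 (SE 0.91) was not called (adjusted p = 0.7976, edgeR). Within the sides the difference was 0.74 and 0.23. Adding the split to the model gave a call for MEG3 as higher (0.51, adjusted p = 0.02317, edgeR).

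Proteins that act on these RNAs were then examined as lists. Of 19 nonsense-mediated decay factors, 1 was called lower and 0 higher by edgeR, and the unadjusted p was under 0.05 for 3 lower and 0 higher. Their median was -0.029. PNRC2, which links the decay factor UPF1 to decapping, was at 172, 172 and 173 CPM in siCtrl and at 126 and 122 CPM in siFAM53C (log2 fold change -0.48, SE 0.096, adjusted p = 0.03752, edgeR). Its call was kept without siCtrl replicate 3 (adjusted p = 0.0187) and lost when any other library was left out (0.1428 to 0.2918), with log2 fold changes of -0.50 to -0.46 over these 5 fits. It was also lost when library totals alone were used (0.0702). UPF2, which activates UPF1, had -0.38 (adjusted p = 0.1649), and MAGOH, an exon junction protein, had 0.37 (adjusted p = 0.3238).

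The mRNAs listed as 5′ TOP mRNAs, whose starts were not read here, lay mostly below 0. Of 21 tested, ribosomal proteins not included, 19 lay below 0 in log2 fold change and the median was -0.13 (-0.055, with 16 below 0, when scaled by library totals), and 1 was called lower. That gene was NAP1L1, a histone chaperone, at 912, 972 and 907 CPM in siCtrl and at 545 and 458 CPM in siFAM53C (log2 fold change -0.89, SE 0.13, adjusted p = 0.009589, edgeR). It lost its call without siCtrl replicate 1 (0.06039), siCtrl replicate 2 (0.07671) or siFAM53C replicate 2 (0.1087). The initiation factor EIF4B had -0.37 (adjusted p = 0.3294) and the nucleolar protein NPM1 -0.37 (adjusted p = 0.2938). None of the 21 was called higher by edgeR (0 at an unadjusted p under 0.05).

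The 16 tested proteins that build snoRNPs, the particles in which the hosted snoRNAs work, had a median of -0.0011 with 8 on each side of 0. By edgeR 0 of them were called, and the unadjusted p was under 0.05 for 1 lower and 2 higher. The H/ACA assembly factors NAF1 and SHQ1 had 0.39 (adjusted p = 0.1652) and -0.34 (adjusted p = 0.2995).

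Of 17 paraspeckle proteins, partners of NEAT1, 0 were called by edgeR in either direction, and the unadjusted p was under 0.05 for 3 lower and 0 higher. Their median was -0.026. The remodelling ATPase SMARCA4 was at 299 ± 30.1 CPM in siCtrl and 211 ± 3.22 CPM in siFAM53C (log2 fold change -0.50, adjusted p = 0.06933), and NUDT21, a subunit of cleavage factor I that bears on NEAT1 isoform choice, had -0.44 (adjusted p = 0.1148). Of 18 nuclear speckle proteins, partners of MALAT1, 0 were called by edgeR, and the unadjusted p was under 0.05 for 3 lower and 1 higher. The median of these was -0.086. The splicing factor SRSF1 had -0.33 (adjusted p = 0.156) and ACIN1 had 0.37 (adjusted p = 0.247). The sign of a median this near 0 depends on the scaling: by library totals alone it was 0.041 for the decay factors, 0.071 for the snoRNP proteins and 0.044 for the paraspeckle proteins, and it stayed below 0 for the speckle proteins (-0.015). With the term for the split, edgeR called 3 lower and 0 higher in each of the decay factor, 5′ TOP and paraspeckle lists. It called 0 lower and 2 higher among the snoRNP proteins, and 5 lower and 1 higher among the speckle proteins. In that fit the background was 10.7% of genes lower and 6.76% higher.

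**Figure D4:**
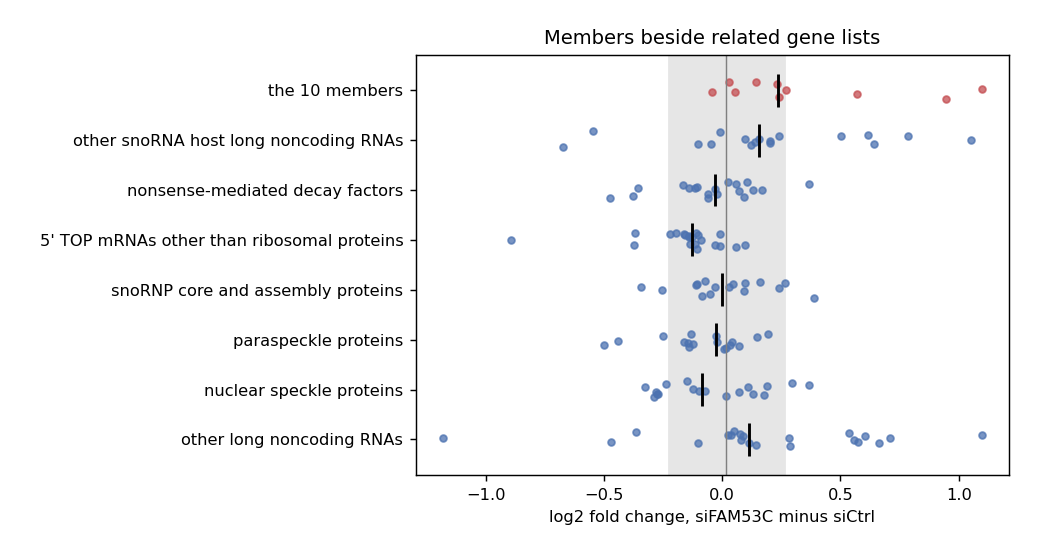
Log2 fold change of each tested gene (points) in the members and in 7 lists of related genes, with a black bar at the median of each list. The grey band spans the middle 50% of all tested genes (-0.22 to 0.26) and the grey line marks their median (0.016). Members and the other long noncoding RNA lists have medians above that line, and the 5′ TOP mRNAs have a median of -0.13.

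Genes that overlap or adjoin the members were read for shared signal. SLC3A2, an amino acid transporter subunit, starts 51 bp from SNHG1 on the opposite strand and shares no exon base with it. It was at 220 ± 5.51 CPM in siCtrl and 181 ± 24.1 CPM in siFAM53C, with both siFAM53C libraries lower, and was not called (log2 fold change -0.29, adjusted p = 0.2647, edgeR). ZNFX1 starts 248 bp inside ZFAS1 on the opposite strand and shares 249 exon bases with it, and had 0.12 (adjusted p = 0.6412). PRSS12 shares 2487 exon bases with SNHG8 and had -0.18 (adjusted p = 0.6087). The GAS5 neighbour ZBTB37 had -0.29, the SNHG12 neighbour TRNAU1AP -0.065, and GAS5-AS1 stood at 0.683 CPM in siCtrl. None of these neighbours was called (edgeR). Exon bases shared with any opposite-strand gene that has a row number 3030 for ZFAS1, 2487 for SNHG8, 878 for DANCR, 610 for MALAT1, 382 for GAS5 and 8 for SNHG12. They number 0 for SNHG1, SNHG5, SNHG15 and NEAT1. Opposite-strand genes without a row are not in these numbers. Of these, TALAM1 shares 8121 exon bases with MALAT1, and an unnamed gene shares 556 with DANCR. Whether the counting used strand is not given in the sources used here, and without it reads of these partners cannot be told apart from those of the members.

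Counts on snoRNA genes were scarce in these polyA libraries, where all of them together held 0.00264% to 0.00529% of counts. The snoRNA genes read were those that GENCODE release 44 places within a member, which include none of GAS5, so the snoRNAs that RefSeq places in GAS5 were not examined. Of those read that have a row, SNORD12B, SNORD12C, SNORD99 and SNORA26 had counts in any library. SNORD12C, in an intron of ZFAS1, had 2, 7 and 4 counts in siCtrl and 20 and 19 in siFAM53C. Its groups did not overlap, and it was not called (log2 fold change 1.83, SE 0.78, adjusted p = 0.2897, edgeR). SNORD12B had 6, 4 and 17 counts in siCtrl and 20 and 27 in siFAM53C (1.08, adjusted p = 0.5476). As SNORD12B shares 88 exon bases with ZFAS1 isoforms, its reads may belong to either. SNORD99, within SNHG12, had 4, 0 and 1 counts in siCtrl and 7 and 13 in siFAM53C, and SNORA26, within DANCR, had 7, 3 and 17 in siCtrl and 4 and 1 in siFAM53C, both too few to test.

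Genes whose pattern over the 5 libraries was most like the mean of the 8 hosts were sought by Euclidean distance between centred log2 CPM values, among 9293 genes with a mean of at least 10 CPM. The nearest were CMTR1 (distance 0.025), SRSF5 (0.037), ZNF264 (0.040), GCC1 (0.041) and SDF2 (0.052). Of the hosts themselves, SNHG5 (0.093) and GAS5 (0.11) lay nearest to that mean and SNHG12 (0.56) farthest. NEAT1 and MALAT1 were at distances of 1.92 and 2.09.

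The lowest count of a member in any library was 330, for SNHG12, where counting error alone is 5.50% of the value, and that of GAS5 was 2800 (1.89%). This counting error is part of the spread between libraries and does not cover differences between cultures. With 3 against 2 libraries, an exact permutation test of 1 value could not go below a two-sided p of 0.2, so none was used.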

How the data were processed

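Polyadenylated RNA of 5 RPE-1 libraries was analysed from raw counts per gene. The authors trimmed reads with CutAdapt 2.10 (minimum length 25), used HISAT2 in reverse-stranded mode against hg38, and deposited counts from featureCounts without normalization or filtering. The annotation release and the strand setting of the counting are not given in the sources used here.

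Counts were fitted in R 4.3.3 with edgeR 4.0.16 (filterByExpr with a minimum count of 10 and total of 15, TMM factors, robust dispersions, condition only) by the quasi-likelihood test, with Benjamini-Hochberg adjustment over all 15341 genes and a threshold of 0.05. Log2 CPM used a prior count of 2. Of 64252 rows, 56105 had a symbol in GENCODE release 44 (GRCh38), which gave positions and lengths. Fits were checked on simulated counts of 15341 genes. They recovered 86 of 100 genes with a log2 change of 2 and 57 of 100 with a log2 change of 1, and 20 unchanged genes were called. Alternatives were DESeq2 1.42.0, limma-voom (limma 3.58.1), other scalings, no filter, unadjusted p, replicate blocks, a term for the library split and each library left out.

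Members and gene lists were chosen with earlier results of these data known. Named genes were all members, FAM53C, for each list the called genes and up to 2 more with the largest change and a mean of at least 10 CPM, genes overlapping a member or starting within 2 kb of it, and the 5 genes nearest to the host mean. Marker genes were named as checks of the label. A marker and a neighbouring gene are not reported here. SNORD and SNORA genes were named for lying within a member. Within-side values are differences of log2 CPM.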

Additional observations from a re-analysis of the deposited data

How the results depend on the processing

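The count of members called higher (0) became 1 with no filter on low counts, 2 at an unadjusted p under 0.05, 2 with the term for the library split, and 0 to 1 when single libraries were left out (1, SNHG12, without siCtrl replicate 3). Members called lower stayed at 0 under every alternative run. Genes called lower (533) were 890 by DESeq2, 961 with no filter, 1607 at an unadjusted p, 1636 with the split term and 157 to 886 with single libraries left out. Genes called higher (75) were 257, 375, 1014, 1037 and 6 to 414 in the same order, and 121 with library totals alone. With a replicate block by title number, 856 genes were lower and 355 higher and 0 members were called. With a replicate block by column number, which sets siFAM53C replicate 2 beside siCtrl replicate 3, 1350 were lower, 642 higher and 2 members were called higher, NEAT1 (0.86, adjusted p = 0.003092, edgeR) and SNHG12 (0.45, adjusted p = 0.04367). Deviations from the group means correlated at 0.17 and -0.28 over the title pairs and at 0.17 and 0.37 over the column pairs, but the deviations of 2 siFAM53C libraries mirror each other and 2 pairs were too few to show that either numbering pairs the libraries.

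Signs turned only in hosts that lay near 0. SNHG15 was 0.030 with library totals. SNHG8 was -0.021 and DANCR -0.022 with the title block. SNHG1 was -0.062 with the column block and -0.036 with the split term. With single libraries left out, SNHG1 ran from -0.18 to 0.21, SNHG8 from -0.0086 to 0.25, SNHG15 from -0.12 to 0.048 and DANCR from -0.023 to 0.12. GAS5, SNHG5, SNHG12, ZFAS1, NEAT1 and MALAT1 kept a log2 fold change above 0 in every alternative. For none of these was the cause tested. With 2 siFAM53C libraries, leaving one out rests on a lone sample assumed to vary like siCtrl. Every member had 330 counts or more in each library.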
